A study of Homo sapiens with 6 samples.

Results

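The forkhead and T-box genes are 2 families of transcription factors, each named for the DNA-binding domain that its members share. They were taken from the gene table by symbol, as protein-coding genes named FOX with a class letter from A to S and a number, or TBX with a number, together with TBXT (brachyury). The rule found 58 genes, 44 forkhead and 14 T-box, of 58735 genes in the table and of 19951 protein-coding ones. Their RNA was compared between UE7T-9 control cells, labelled WT, and UE7T-9 cells labelled SRRM4 KO, with 3 libraries in each group. UE7T-9 is a mesenchymal stem cell (MSC) line from human bone marrow. SRRM4, a splicing factor best known from neurons, was targeted in the KO line with a CRISPR v2 lentivirus, and the line was grown from 1 clone. Flow cytometry in the study found less SRRM4 protein in it, not a complete loss. The paper states in general that its experiments were done at least 3 times. Nothing in the sources says that the 3 libraries of a group came from separate cultures. The p-values below thus measure the spread between libraries, which may be technical.

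Forkhead factors bind DNA through a winged helix, and several of them can open closed chromatin. FOXC, FOXF and FOXL genes pattern mesenchyme, the tissue from which bone, cartilage and fat arise, and FOXC1 is known for keeping up the stromal niche of the bone marrow. FOXO factors are held back by insulin signalling, and FOXM1 drives the genes of mitosis. T-box factors bind as activators or repressors and are known for shaping limb, heart and mesoderm. TBX2 and TBX3 are close relatives that mainly repress, among other genes inhibitors of the cell cycle.

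The kinship within each family can be read from the coding bases of the domain. A stretch of 30 coding bases was located by a pattern over the translation of each gene's longest coding transcript, in GENCODE release 29 (GRCh38). In the forkhead domain it lies in the helix that enters the major groove of DNA. It was found in 41 of 44 forkhead and in 14 of 14 T-box genes. The transcripts used for FOXP1, FOXR1 and FOXR2 held no match to the pattern, and their other transcripts were not searched. The 8 stretches below are those of the genes that the results turn on, on the coding strand, with capitals for the bases that all genes shown of the same family share.
FOXC1: AACagcaTcCGCCACAAcCTctCgCTcaAC
FOXE1: AACagcaTcCGCCACAAcCTcaCaCTcaAC
FOXS1: AACagcaTcCGCCACAAcCTgtCaCTcaAC
FOXQ1: AACtccgTgCGCCACAAcCTttCgCTcaAC
FOXF2: AACtcggTgCGCCACAAtCTctCgCTcaAC
FOXM1: AACtccaTcCGCCACAAcCTttCcCTgcAC
TBX2: TTCATCGCcGTcACTGCcTACCAGAATGAc
TBX3: TTCATCGCtGTgACTGCaTACCAGAATGAt

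The forkhead stretches lie at chr6:1610815-1610844 in exon 1 of FOXC1, at chr9:97854209-97854238 in exon 1 of FOXE1, and at chr20:31845324-31845353 on the minus strand in exon 1 of FOXS1. Those of FOXQ1 and FOXF2 are at chr6:1313197-1313226 and chr6:1390383-1390412, both in exon 1, and that of FOXM1 is at chr12:2866492-2866521 on the minus strand in exon 5. The T-box stretches are at chr17:61403175-61403204 in exon 3 of TBX2 and at chr12:114679508-114679537 on the minus strand in exon 4 of TBX3. The 6 forkhead genes shown share 19 of the 30 bases, and TBX2 and TBX3 share 26. FOXE1 and FOXS1 each share 28 bases with FOXC1, FOXQ1 shares 25, and FOXF2 and FOXM1 share 24. FOXC2, FOXD1 and FOXL1 carry the same 30 bases as FOXC1, and FOXP2 shares the fewest with it, at 15.

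Depth was even, with 21951370 to 22916826 counts in the control libraries and 21496117 to 23868323 in the SRRM4 KO libraries. A library with 0 counts of a gene allows up to 3 counts, which is between 0.123 and 0.139 CPM (the counts of a gene scaled to library size, with TMM factors), a limit that covers counting error only. SRRM4 itself had 0 counts in all 6 libraries, so its RNA gives no check of the labels. Control 1 was the most distant replicate: its chi-square per degree of freedom was 20.9 against Control 2 and 21.4 against Control 3, beside 5.44 for that pair. The 6 mesenchymal markers were counted in every library, and 3 of them were called lower in SRRM4 KO: THY1 (log2 fold change -2.43), PDGFRB (-2.14) and COL1A1 (-1.23), while NT5E was at 0.52, VIM at 0.36 and ENG at -0.34, each with an adjusted p under 0.05. The summed level of the 6 ranged from 28280 to 31650 CPM in control and from 12930 to 14560 CPM in SRRM4 KO. Of the markers not expected in MSCs, PTPRC had 0 to 2 counts and HLA-DRA 0 to 11, but CD14 had 324 to 392 and CD34 had 66 to 93. The summed level of 4 endothelial markers was 21.5 to 25.3 CPM in control and 3.29 to 4.82 CPM in SRRM4 KO, nearly all of it from TEK and KDR, which were called lower, with PECAM1 and CDH5 at 3 counts or fewer. The 4 epithelial markers summed to 0.646 to 1.93 CPM in control and 0.404 to 0.575 CPM in SRRM4 KO. The 4 neuronal ones summed to 4.04 to 5.12 CPM in control and 2.09 to 3.55 CPM in SRRM4 KO. In bulk RNA, fewer cells of a type and less RNA per cell cannot be told apart, and the part of these markers in the changes below was not tested.

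Of the 58 genes, 44 had at least 1 count, and 30 passed the filter on low counts and were tested, 25 forkhead and 5 T-box. A gene was called when its adjusted p (edgeR's quasi-likelihood test, Benjamini-Hochberg over 15341 genes) was under 0.05 and its log2 fold change was beyond 1. FOXM1, TBX2 and TBX3 were called higher in SRRM4 KO, and FOXE1 and FOXS1 were called lower. That is 5 of 30 tested, or 16.7%, beside 12.6% of all tested genes, of which 5.45% were higher and 7.14% lower. FOXS1 counts among these 5, and among the 9 genes that fell by the adjusted p, although it passed the filter through its control libraries alone. With the adjusted p alone, 5 rose and 9 fell, or 46.7%, beside 41.6% of all tested genes (20.7% higher, 20.9% lower). The libraries of both groups did not overlap in CPM for 17 of the 30, or 56.7%, beside 51.8% of all tested genes. The share of changed genes was thus near the background of this comparison. The median log2 fold change was -0.17 over the 30 and -0.01 over all tested genes, and 19 of the 30 were below 0. Other genes with a transcription factor family in the table were called in 10.8% of 1094 tested, with a median of -0.04. Together the 58 genes made up 0.110% to 0.117% of all counts in control and 0.122% to 0.123% in SRRM4 KO.

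**Figure D1:**
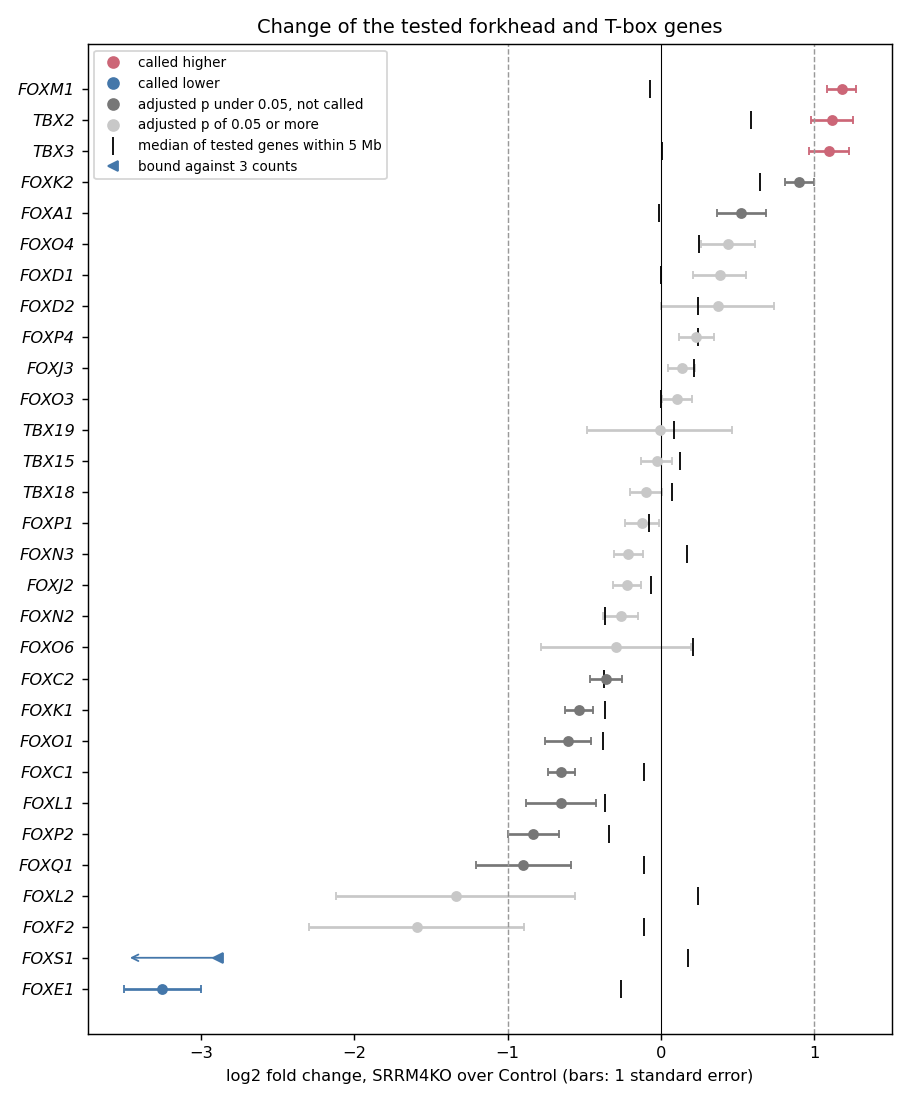
Log2 fold change of the 30 tested forkhead and T-box genes, SRRM4 KO over control, with 1 standard error as bars, called genes in colour, and black ticks for the median of the other tested genes within 5 Mb. FOXM1, TBX2 and TBX3 lie beyond 1, FOXE1 lies at -3.25, and the arrow of FOXS1 starts at the bound set by 3 counts in each SRRM4 KO library.

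FOXM1 (ENSG00000111206, chr12:2857681-2877155, minus strand) had the largest rise of the 30 tested genes. It was counted 1050, 1203 and 1189 times in the control libraries and 2747, 3013 and 2422 times in the SRRM4 KO libraries. The groups did not overlap, and the spread within each was small beside the gap. Its level rose from 52.5 ± 3.75 to 119 ± 7.76 CPM (SD, n = 3 each), a 2.27-fold rise (log2 fold change 1.18, SE 0.093, adjusted p = 9.40e-08). A test against the fold threshold itself (glmTreat) did not call it (adjusted p = 0.126). Among its 87 tested neighbours within 5 Mb the median was -0.07, and within 2 Mb it was 0.053. FOXM1 shares exonic sequence with ITFG2 on the opposite strand, which had 1668 counts over the 6 libraries, fewer than FOXM1, and unstranded reads of both cannot be told apart where they overlap.

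Of 15 genes known as FOXM1 targets in mitosis, 13 were called higher and 0 lower, beside the 5.45% of all tested genes called higher (8 of the 15 with glmTreat). Their median log2 fold change was 1.24. Their summed level was 739.8 to 799.8 CPM in the control libraries and 1717 to 1746 CPM in the SRRM4 KO libraries. BIRC5 (survivin), which guides chromosome segregation with the aurora kinase AURKB, went from 37.9 ± 2.33 to 149 ± 10.1 CPM (log2 fold change 1.97, adjusted p = 4.05e-10). AURKB was at a log2 fold change of 1.84, and AURKA, the kinase of the spindle poles, was at 1.73. TOP2A, the topoisomerase that untangles sister chromatids, held the most counts of the list, with 3963 to 4935 in control and 10385 to 10711 in SRRM4 KO. The phosphatase CDC25B rose by less than the threshold (0.62, adjusted p = 3.37e-05). SKP2, a ubiquitin ligase subunit of the step into S phase, was at -0.01 (SE 0.097, adjusted p = 0.970), with 1352 to 1624 counts over the 6 libraries. FOXM1 itself is made in dividing cells, as these genes are. The paper's proliferation assay (MTS) found no significant difference between the groups. The part of cell division in the values above was not tested.

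TBX2 (ENSG00000121068, chr17:61399896-61409466, plus strand) and TBX3 (ENSG00000135111, chr12:114670254-114684164, minus strand) both rose about as much as FOXM1. TBX2 had 254, 336 and 350 counts in control and 631, 814 and 695 in SRRM4 KO. Its level went from 14.3 ± 2.26 to 31.1 ± 2.58 CPM, or 2.17-fold (log2 fold change 1.12, SE 0.138, adjusted p = 1.08e-05). Control 1 was the lowest of the 6 libraries, and without it the log2 fold change of TBX2 was 0.99 (adjusted p = 4.75e-07), just short of the threshold. TBX3 had 255, 217 and 244 counts in control and 556, 562 and 486 in SRRM4 KO. That is 10.9 ± 0.847 and 23.4 ± 1.46 CPM, or 2.14-fold (log2 fold change 1.10, SE 0.130, adjusted p = 7.22e-06). The groups did not overlap for either gene, and glmTreat called neither (adjusted p = 0.713 for TBX2 and 0.824 for TBX3).

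The genes around these 2 differed. Within 5 Mb of TBX2 the median over 92 other tested genes was 0.59, which leaves 0.53 for TBX2 when it is taken off. The 63 around TBX3 had a median of 0.01. FOXM1, TBX3 and FOXE1 stayed beyond 1 after their neighbours' median was taken off, with windows of 5 Mb and of 2 Mb. TBX2-AS1, the antisense gene that overlaps the TBX2 locus, had 19, 21 and 35 counts in control and 58, 38 and 41 in SRRM4 KO (log2 fold change 0.81, adjusted p = 0.116). TBX4, the hindlimb and lung gene that neighbours TBX2 within 85.2 kb, had 1, 0 and 1 counts in control and 2, 7 and 2 in SRRM4 KO and was not tested. TBX5, its forelimb and heart counterpart beside TBX3, had 0 counts in every library.

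The 3 other tested T-box genes did not pass the test. TBX15, which acts in skeletal and limb mesenchyme, was the most abundant T-box gene per length, at 1566, 1230 and 1496 counts in control against 1406, 1632 and 1375 in SRRM4 KO (log2 fold change -0.03, SE 0.10, adjusted p = 0.853). TBX18, known from the sinoatrial node and from mesenchymal progenitors, had 1279 to 1580 counts in control and 1342 to 1384 in SRRM4 KO (-0.09, adjusted p = 0.508). For both, the groups overlapped. TBX19, which turns on the POMC gene in the pituitary, had 14 to 22 counts (-0.01, SE 0.47, adjusted p = 0.993). TBX6, a gene of paraxial mesoderm, had 0 counts in control and 5, 4 and 2 in SRRM4 KO, at least 1.16-fold higher than a control of 3 counts per library, and was not tested. TBX10 had 1 count in control and 5 in SRRM4 KO. TBXT, TBX1, TBX5, TBX20, TBX21 and TBX22 had 0 counts in all 6 libraries.

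**Figure D2:**
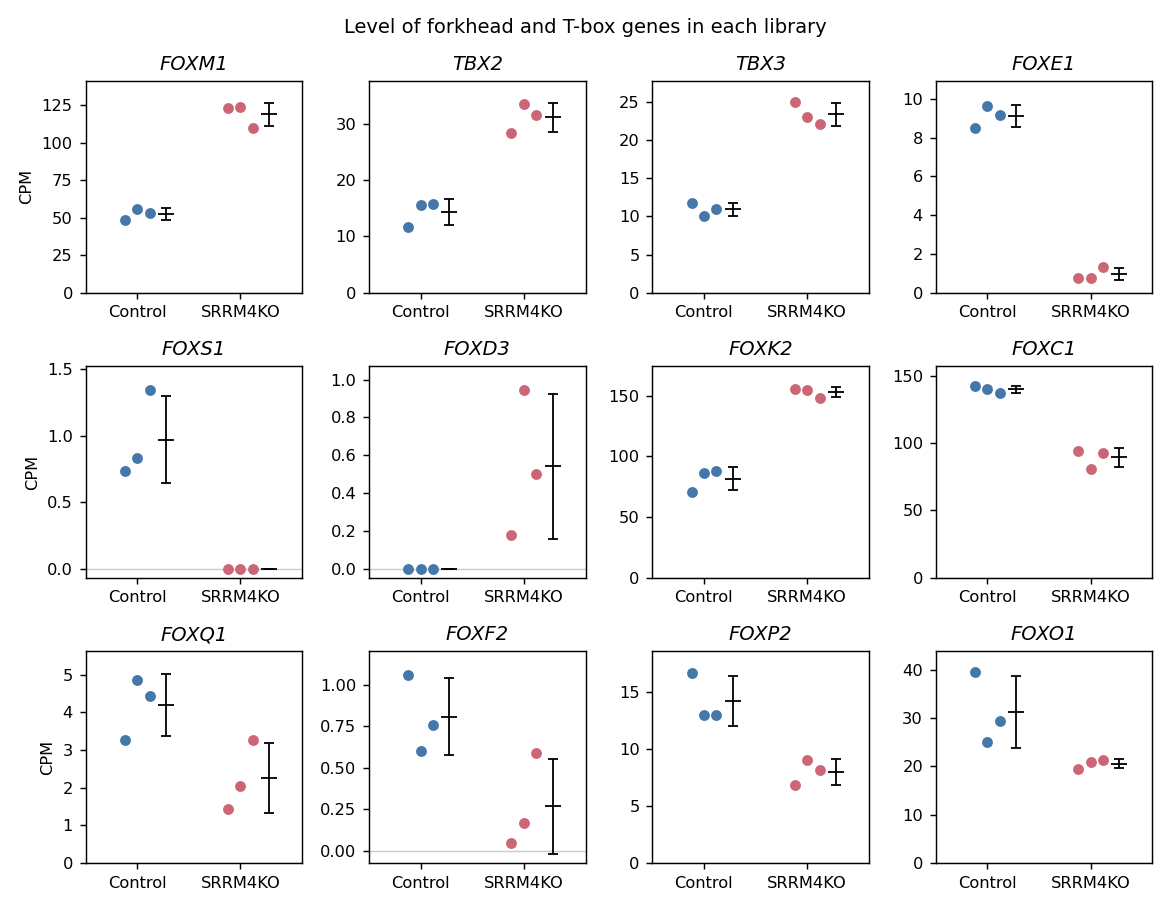
CPM of 12 forkhead and T-box genes in the 3 control (blue) and 3 SRRM4 KO (red) libraries, each point a library and each black bar the mean ± SD of its group, on linear axes that differ between genes. Both groups are apart for FOXM1, TBX2, TBX3, FOXE1 and FOXK2, while FOXQ1 and FOXF2 approach each other through SRRM4 KO 3.

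FOXE1 (ENSG00000178919, chr9:97853254-97856715, plus strand), the gene of 1 exon that is needed to form the thyroid and the palate, fell the most of the tested forkhead and T-box genes that were counted in both groups. It had 184, 207 and 205 counts in control and 17, 19 and 29 in SRRM4 KO. Its level was 9.09 ± 0.564 CPM in control and 0.954 ± 0.315 CPM in SRRM4 KO, 9.52-fold lower (log2 fold change -3.25, SE 0.25, adjusted p = 7.59e-08). The spread within each group was far below the gap. The 56 neighbours within 5 Mb had a median of -0.26. The log2 fold change stayed between -3.56 and -3.13 whichever library was left out.

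The 250 bases before the RefSeq start of FOXE1 (GRCh38.p14, chr9:97852976-97853225, plus strand) are shown because its fitted change was the largest in this family among genes counted in both groups. Capitals mark matches to GGGCGG, the letters of a GC box, on either strand. It holds 4 of them, it is 75.6% G or C, and it overlaps an exon of the long noncoding RNA gene PTCSC2. None of the other motifs searched, which are spelled out further on, occurs in it.
FOXE1: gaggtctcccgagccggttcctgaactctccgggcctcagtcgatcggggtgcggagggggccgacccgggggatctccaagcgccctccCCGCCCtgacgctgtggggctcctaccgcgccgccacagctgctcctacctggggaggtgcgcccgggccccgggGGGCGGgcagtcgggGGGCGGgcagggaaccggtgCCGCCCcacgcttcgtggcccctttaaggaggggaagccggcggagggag

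FOXS1 (ENSG00000179772, chr20:31844301-31845619, minus strand), another gene of 1 exon, is known from neural crest derivatives and the pericytes around small vessels. It had 16, 18 and 30 counts in control and 0 in each SRRM4 KO library. At 0.972 ± 0.326 CPM in control it was at least 7.40-fold lower in SRRM4 KO, against 3 counts per library (adjusted p = 0.000174). It entered the test only through its control libraries. PDGFRB, a receptor that pericytes carry as well, is one of the mesenchymal markers called lower above, a list in which NT5E and VIM rose. No list of pericyte markers was read, and a link between FOXS1 and PDGFRB was not tested.

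Forkhead genes lay within 1 Mb of each other at 4 places. At 2 of these, both on chromosome 1 (FOXO6 with FOXJ3, and FOXE3 with FOXD2), 0 of 3 tested genes passed the adjusted p. The other 2 held genes that fell by less than the threshold. On chromosome 6, FOXQ1, FOXF2 and FOXC1 lie within 301.5 kb (chr6:1312440-1613897), and FOXC1 and FOXQ1 fell by the adjusted p, while FOXF2 did not pass. FOXC1 (ENSG00000054598) had the highest level per length of the 30 genes over all libraries. It had 3086, 3018 and 3068 counts in control and 2095, 1975 and 2042 in SRRM4 KO, from 140 ± 2.43 to 89.3 ± 7.14 CPM (log2 fold change -0.65, SE 0.087, adjusted p = 2.37e-05). FOXQ1 (ENSG00000164379), studied mostly in epithelia and tumours, had 71, 105 and 99 counts in control and 32, 50 and 72 in SRRM4 KO (-0.90, SE 0.311, adjusted p = 0.0303). The lowest control and the highest SRRM4 KO library nearly met, at 3.27 CPM each. FOXQ1 was called without Control 1 (-1.05) or SRRM4 KO 3 (-1.27), and it lost its adjusted p without any one of the other 4 libraries (0.0812 to 0.114).

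FOXF2 (ENSG00000137273), a gene of gut and palate mesenchyme, had 23, 13 and 17 counts in control and 1, 4 and 13 in SRRM4 KO. Its log2 fold change of -1.59 (SE 0.704) did not pass (adjusted p = 0.0833), and SRRM4 KO 3 sat at the level of Control 2. It passed the filter through its control libraries alone. The value rested on single libraries, at -2.87 without SRRM4 KO 3 (adjusted p = 0.0173) and at -1.11 without SRRM4 KO 1 (adjusted p = 0.262). FOXCUT, a noncoding gene just before FOXC1, had 32, 34 and 17 counts in control and 5, 11 and 16 in SRRM4 KO and was called lower (-1.43, adjusted p = 0.0451), again with the filter passed through control alone. The 36 neighbours of each of the 3 genes within 5 Mb had a median of -0.11, and within 2 Mb it was -0.29 around FOXC1 and FOXF2 and -0.31 around FOXQ1.

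The bases before the RefSeq starts of the 3 chromosome 6 genes are shown to compare neighbouring genes of the cluster, each 250 bases long, on the plus strand of GRCh38.p14. They lie at chr6:1311848-1312097 (FOXQ1), chr6:1389326-1389575 (FOXF2) and chr6:1609665-1609914 (FOXC1). Capitals mark the same GC box letters as above. They also mark CCAAT, the letters of the box of that name, on either strand. FOXQ1 has 1 GC box and 2 CCAAT boxes, and FOXF2 and FOXC1 have 2 GC boxes and 1 CCAAT box each. Their G and C content is 74.0%, 70.8% and 76.8%.
FOXQ1: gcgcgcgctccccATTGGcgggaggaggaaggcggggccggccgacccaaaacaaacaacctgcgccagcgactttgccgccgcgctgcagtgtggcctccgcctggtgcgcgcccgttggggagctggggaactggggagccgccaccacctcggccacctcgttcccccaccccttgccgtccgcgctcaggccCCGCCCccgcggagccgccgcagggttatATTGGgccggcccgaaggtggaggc
FOXF2: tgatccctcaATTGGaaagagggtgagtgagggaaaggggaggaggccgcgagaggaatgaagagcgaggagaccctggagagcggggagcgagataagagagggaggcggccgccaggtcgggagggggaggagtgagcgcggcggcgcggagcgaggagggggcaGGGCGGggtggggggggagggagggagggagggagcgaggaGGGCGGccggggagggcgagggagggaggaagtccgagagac
FOXC1: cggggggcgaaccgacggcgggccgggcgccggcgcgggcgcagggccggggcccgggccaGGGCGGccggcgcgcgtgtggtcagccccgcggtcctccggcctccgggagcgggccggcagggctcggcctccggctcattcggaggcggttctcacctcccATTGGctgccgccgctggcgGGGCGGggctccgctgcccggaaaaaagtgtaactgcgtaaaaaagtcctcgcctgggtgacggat

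These motifs are common. Over the 35116 RefSeq promoters of this length, 42.6% hold GGGCGG and 32% hold CCAAT. Of the 58 genes, 44 had an entry, and 29 of these (65.9%) hold GGGCGG and 9 (20.5%) hold CCAAT. Their median G and C content is 67.2%, beside 58% for all promoters. FOXM1, TBX2, TBX3 and FOXS1 are among the 14 genes without an entry, so of the called genes only FOXE1 is covered. The forkhead letters TGTTTAC occur in 2.98% of all promoters and in 0 of the 44, and the T-box letters GGTGTGA in 2.76% and in 1 of the 44. TATAAA, the letters of a TATA box, is in 10.7% of all promoters and in 4 of the 44. The E-box letters CACGTG are in 6.34% and in 4 of the 44. TTTGAA, a core of the element that represses cell cycle genes outside mitosis, is in 13.3% and in 5 of the 44.

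The other cluster is on chromosome 16, where FOXF1, FOXC2 and FOXL1 lie within 71.6 kb (chr16:86510527-86582160). FOXC2, which acts in lymphatic vessels and somites, had 965, 1131 and 1158 counts in control and 883, 995 and 781 in SRRM4 KO (log2 fold change -0.36, SE 0.105, adjusted p = 0.0121). FOXL1, a marker of gut and liver mesenchyme, had 108, 101 and 139 counts in control and 79, 66 and 85 in SRRM4 KO (-0.65, SE 0.229, adjusted p = 0.0317). The groups did not overlap for either gene. The neighbours of FOXC2 within 5 Mb had a median of -0.37 (-0.54 within 2 Mb), and those of FOXL1 had a median of -0.36 (-0.43 within 2 Mb). The adjusted p of FOXC2 rose to between 0.0511 and 0.0579 without Control 2, Control 3 or SRRM4 KO 3, and that of FOXL1 to between 0.0552 and 0.133 without Control 3, SRRM4 KO 1 or SRRM4 KO 2, and to 0.0681 with DESeq2. FOXF1, the lung and gut gene that hedgehog signals switch on, had 3, 0 and 0 counts in control and 3, 0 and 2 in SRRM4 KO, and its noncoding neighbour FENDRR had 0 in every library.

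**Figure D3:**
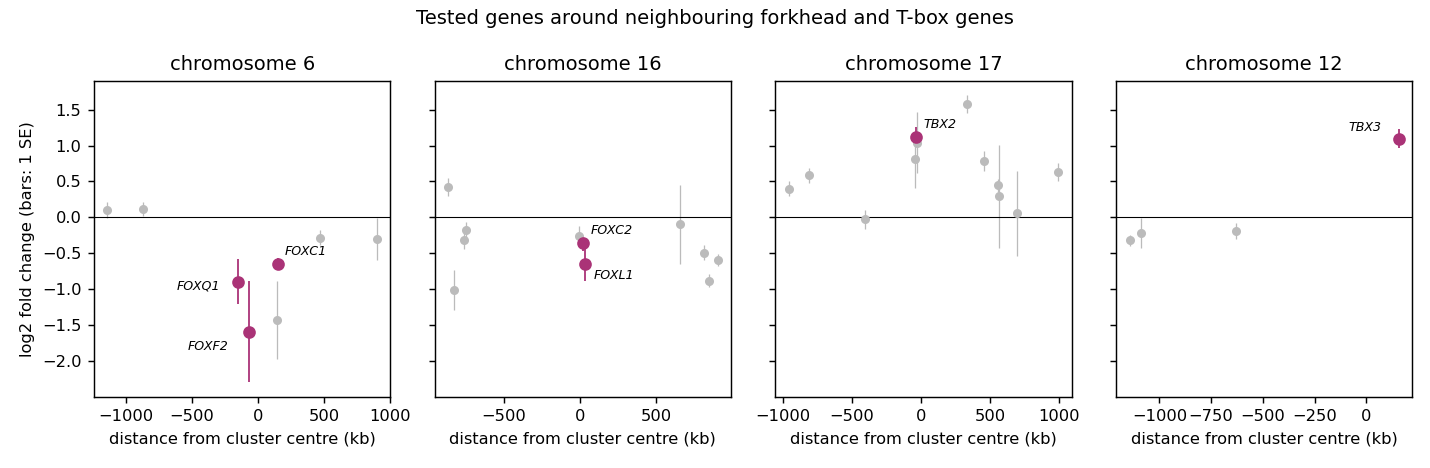
Log2 fold change (bars: 1 SE) of the tested genes within 1 Mb of 4 groups of neighbouring forkhead or T-box genes, by distance in kb from the centre of the group, with the forkhead and T-box genes in purple. The forkhead genes of chromosomes 6 and 16 lie below 0, TBX2 lies among neighbours that are mostly above 0, and TBX3 stands alone above 0.

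Hedgehog signalling is known to act on FOXF and FOXL genes in mesenchyme, so 11 genes of that pathway were read beside them. Of 10 tested, 4 were called lower and 0 higher, beside 7.14% of all tested genes called lower, and 2 more fell by less than the threshold. With glmTreat 2 of the 4 were called, HHIP and GAS1. The median log2 fold change was -0.60, and the summed level was 177.8 to 193.4 CPM in control and 112.3 to 123.7 CPM in SRRM4 KO. HHIP, a decoy receptor that is itself induced by the pathway, had 112, 175 and 113 counts in control and 11, 15 and 12 in SRRM4 KO (-3.45, adjusted p = 5.01e-07). The receptor PTCH1, a target of the pathway as well, was at -1.32, the coreceptor GAS1 at -1.89 and the transcription factor GLI2 at -1.25. GLI1, the usual readout of the pathway, had 4 to 10 counts per library and was not tested.

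Of the 14 genes annotated with 1 exon, all of them forkhead genes, 8 were tested, and 5 of these fell and 0 rose by the adjusted p, beside 20.9% lower and 20.7% higher over all tested genes, with a median log2 fold change of -0.77. FOXS1, 1 of the 5, was tested through its control libraries alone. FOXQ1 and FOXC2, also among the 5, lost the adjusted p in several of the fits that left out 1 library. Of the 22 tested genes with several exons, 5 rose and 4 fell, with a median of -0.06. Between the 2 classes the difference was not tested.

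Of the 4 FOXO factors, FOXO1 passed the test. FOXO1, the main effector of insulin signalling, had 859, 540 and 656 counts in control and 434, 509 and 470 in SRRM4 KO (log2 fold change -0.61, SE 0.150, adjusted p = 0.00429). Its control libraries were spread from 25.1 to 39.6 CPM, with Control 1 highest, and the groups did not overlap. FOXO3 was at 0.11, FOXO4 at 0.44 and FOXO6 at -0.29, with adjusted p of 0.409, 0.0613 and 0.675. That of FOXO4 was 0.0436 without Control 3 and 0.0424 without SRRM4 KO 3. With 1 library left out, FOXO3 ranged from 0.0276 to 0.1749 and FOXO6 from -0.8382 to -0.0056. Of 18 tested genes among 21 known FOXO targets, 1 (5.56%) was called lower and 0 higher, beside 12.6% of all tested genes called, and the median was -0.11. That one was PIK3IP1, an inhibitor of PI3 kinase, at 366, 373 and 534 counts in control against 110, 180 and 125 in SRRM4 KO (-1.69, adjusted p = 3.36e-06). TRIM63 was called lower as well without Control 1 or SRRM4 KO 1, which gave 2 calls in place of 1. It passed the filter in those fits through its control libraries alone, so this call adds no support. By the adjusted p alone, 3 rose (SESN1, FBXO32 and GADD45A) and 6 fell, among them the cell cycle inhibitor CDKN1B (-0.48) and KLF2 (-0.80). These 9 are 50% of the 18 tested, near the 41.6% of all tested genes. The summed level of the list was 1290 to 1319 CPM in control and 1211 to 1252 CPM in SRRM4 KO.

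FOXK1 and FOXK2, a pair known to repress autophagy genes and to favour glycolysis, moved in opposite directions. FOXK2 (ENSG00000141568, chr17:82519713-82644662) had 1537, 1856 and 1961 counts in control and 3468, 3768 and 3257 in SRRM4 KO (1.87-fold, log2 fold change 0.90, SE 0.095, adjusted p = 1.91e-06). FOXK1 (chr7:4682309-4771443) had 1237, 1225 and 1277 counts in control and 936, 950 and 818 in SRRM4 KO (-0.53, SE 0.094, adjusted p = 0.000315). The groups did not overlap for either gene. Each had neighbours that were shifted the same way, with a median of 0.65 around FOXK2 and of -0.37 around FOXK1. FOXK2 also overlaps WDR45B on the opposite strand, which had 18891 counts over the 6 libraries, so part of the reads counted on FOXK2 may belong to it.

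Among the FOXP genes, FOXP2, which is known for its part in speech and also acts in cartilage and bone, had 363, 280 and 290 counts in control and 152, 220 and 179 in SRRM4 KO (-0.83, SE 0.165, adjusted p = 0.000835). FOXP1 was at -0.12 and FOXP4 at 0.23, and neither passed. FOXA1, a pioneer factor of endoderm and breast, had 204, 154 and 160 counts in control and 247, 293 and 243 in SRRM4 KO (0.53, SE 0.161, adjusted p = 0.0161). Its adjusted p was 0.0641 to 0.0645 without Control 2, Control 3 or SRRM4 KO 2, and it overlaps TTC6 on the opposite strand (98 counts).

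The remaining tested forkhead genes did not pass. FOXN3, a checkpoint repressor, was among the 5 most abundant per length, at 4414, 3437 and 3727 counts in control against 3255, 3747 and 3471 in SRRM4 KO (-0.21, adjusted p = 0.0908). It was at -0.10 without Control 1 (adjusted p = 0.244) and at -0.28 without Control 2 (0.0476). FOXN2 was at -0.26, FOXJ2 at -0.22 (adjusted p = 0.0665, and 0.0381 to 0.0487 in 4 of the alternatives), FOXJ3 at 0.14 and FOXD2 at 0.37. FOXD1, a gene of the kidney stroma, was at 0.39 (adjusted p = 0.0898), and its lowest library was Control 1 with 325 counts, where the others had 537 to 706. Without Control 1 it was at 0.16, and it passed with no filter (adjusted p = 0.0183), with the replicate number as a block (0.0417) and without Control 3 (0.0342). FOXL2, the ovarian factor, had 14, 19 and 8 counts in control and 0, 11 and 6 in SRRM4 KO (-1.34, SE 0.78, adjusted p = 0.188), and it ranged from -2.17 without SRRM4 KO 2 to -0.78 without SRRM4 KO 1.

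FOXD3 (ENSG00000187140, chr1:63323041-63325126, plus strand), which keeps neural crest and pluripotent cells undifferentiated, was counted in 1 group only. No control library held a count, 0 in each, and SRRM4 KO held 4, 23 and 11, or 0.541 ± 0.384 CPM, at least 3.94-fold higher than 3 counts per control library. It fell under the filter on low counts and has no value in the test above. Without the filter its adjusted p was 0.00036, and DESeq2, which tested it too, gave 0.00114. It also passed the filter, through its SRRM4 KO libraries alone, in the 4 fits that left out 1 control library or SRRM4 KO 1. It was called there, which adds no support. Without SRRM4 KO 2 or SRRM4 KO 3 it fell under the filter and was not tested. FOXD3-AS1, which overlaps it on the opposite strand, had 4, 3 and 7 counts in control and 17, 19 and 19 in SRRM4 KO and was called higher (log2 fold change 1.88, SE 0.59, adjusted p = 0.0182), though it passed the filter through its SRRM4 KO libraries alone. Since the libraries are not stranded, reads from the shared bases of both genes cannot be told apart.

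The 250 bases before the RefSeq start of FOXD3 (GRCh38.p14, chr1:63322317-63322566, plus strand) are shown because they overlap an exon of FOXD3-AS1. Capitals mark 1 GC box (GGGCGG) and 1 E-box (CACGTG). The RefSeq start lies 474 bases before the gene start given in the gene table.
FOXD3: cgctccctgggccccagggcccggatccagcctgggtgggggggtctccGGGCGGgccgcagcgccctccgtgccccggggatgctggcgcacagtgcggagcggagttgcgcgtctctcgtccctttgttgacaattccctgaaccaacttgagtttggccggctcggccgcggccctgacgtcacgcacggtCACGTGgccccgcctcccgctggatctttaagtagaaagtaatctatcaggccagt

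The other genes under the filter were near the limit of detection. FOXD4 had 4, 11 and 8 counts in control and 10, 8 and 3 in SRRM4 KO, and its near-identical copies FOXD4L1 and FOXD4L4 had 6 or fewer per library, so its reads may be split among them. FOXP3, the factor of regulatory T cells, had 3, 0 and 6 counts in control and 3, 2 and 0 in SRRM4 KO and overlaps CCDC22 (3012 counts). FOXA2, FOXB1, FOXB2, FOXH1, FOXJ1 and FOXN1 had 3 counts or fewer in any library. FOXA3, FOXE3, FOXI1, FOXI2, FOXI3, FOXN4, FOXR1 and FOXR2 had 0 in all 6. For these the depth allows no statement beyond the limit that 0 counts set. Of 15 noncoding genes named after their forkhead or T-box neighbour, 5 were tested, FOXD3-AS1 was called higher, FOXCUT was called lower, and FOXD2-AS1 and FOXN3-AS1 were both at -0.03. Of 8 relatives outside the symbol rule, EOMES and MGA were tested, and neither passed (-0.18 and -0.05).

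Levels of different genes were compared as CPM per kilobase of the gene length in the table. FOXC1 was highest in control at 35.6 ± 0.619 CPM per kilobase and FOXM1 in SRRM4 KO at 24.3 ± 1.58, where FOXC1 was at 22.7 ± 1.82. FOXC2 (17.1), FOXN3 (16.01) and TBX15 (15.05) followed in control. In SRRM4 KO the genes after FOXM1 and FOXC1 were FOXK2 (15.3), TBX15 (14.8), FOXO3 (14.6), FOXN3 (13.8) and FOXC2 (13.3), and the order among these was not tested. In control FOXM1 was at 10.7 ± 0.765, below FOXC1, FOXC2, FOXN3, TBX15 and FOXO3 (13.6). In SRRM4 KO the libraries of FOXM1 and FOXC1 were close, and the order of those 2 there was not tested. FOXE1, FOXS1, TBX2 and TBX3 were all under 6 CPM per kilobase in both groups.

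**Figure D4:**
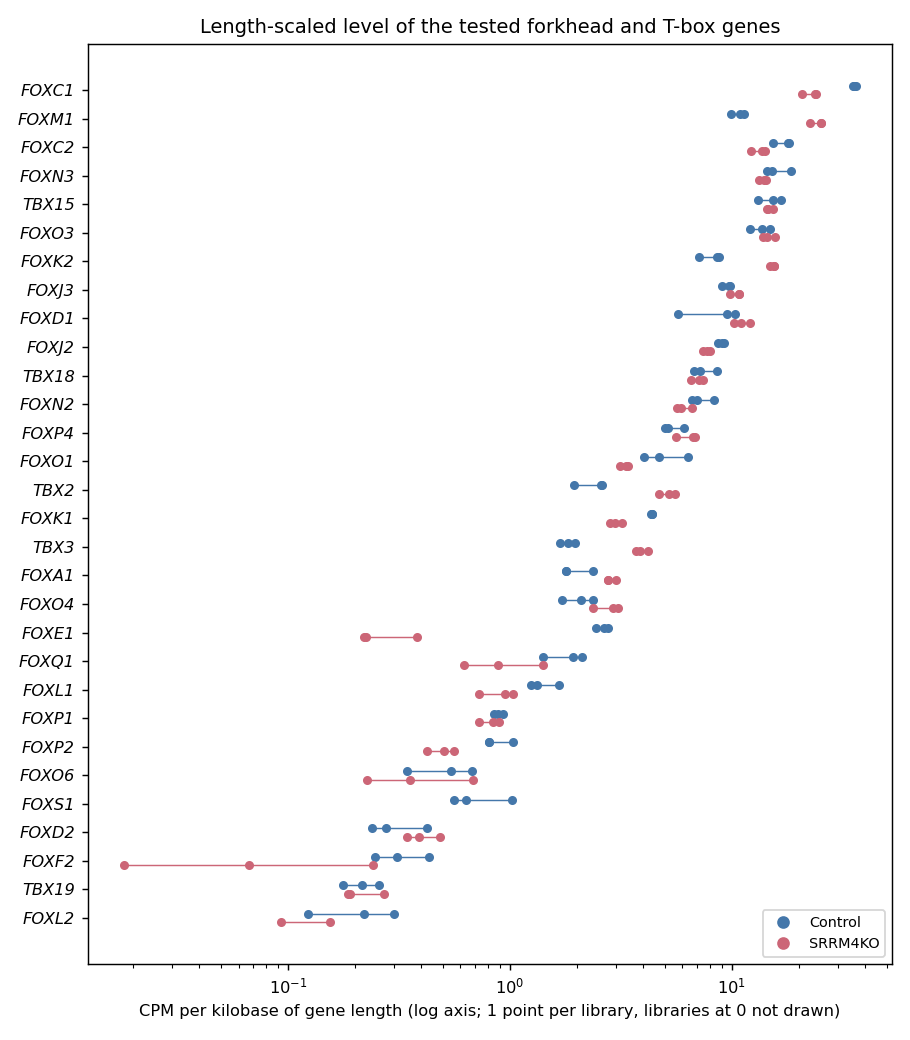
CPM per kilobase of gene length of the 30 tested genes on a log axis, each point a library, control in blue above SRRM4 KO in red, ordered by the mean of all libraries. FOXC1 leads in control, FOXM1 moves up next to it in SRRM4 KO, and libraries at 0, among them the 3 SRRM4 KO libraries of FOXS1, are not drawn.

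T-box genes work with homeobox, GATA, HAND, TWIST and SALL factors in limb and heart, and 25 such genes were read beside them. Of 18 tested, 1 was called lower and 0 higher, beside 12.6% of all tested genes called. That count was 3 without Control 1, SRRM4 KO 1 or SRRM4 KO 2 and 2 without Control 2. By the adjusted p alone, 2 rose and 8 fell, or 55.6%, beside 41.6% of all tested genes (20.7% higher, 20.9% lower), and the median log2 fold change was -0.57. The called gene was PRRX2, a homeobox gene of limb mesenchyme, at 140, 165 and 220 counts in control against 7, 32 and 2 in SRRM4 KO (-3.75, SE 0.472, adjusted p = 1.33e-05). It passed the filter through its control libraries alone and was not tested where 10 counts in every library were required, and its SRRM4 KO libraries differed from each other by more than the control libraries did, in proportion. TWIST1 (-0.98) and GATA6 (-0.99) fell to just short of the threshold, and PRRX1, the relative of PRRX2, fell by 0.57. HAND2 (0.04), PITX1 (-0.03) and SHOX2 (-0.10) did not pass. The summed level of the 25 genes was 379.5 to 401.7 CPM in control and 302.4 to 307.3 CPM in SRRM4 KO.

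**Figure D5:**
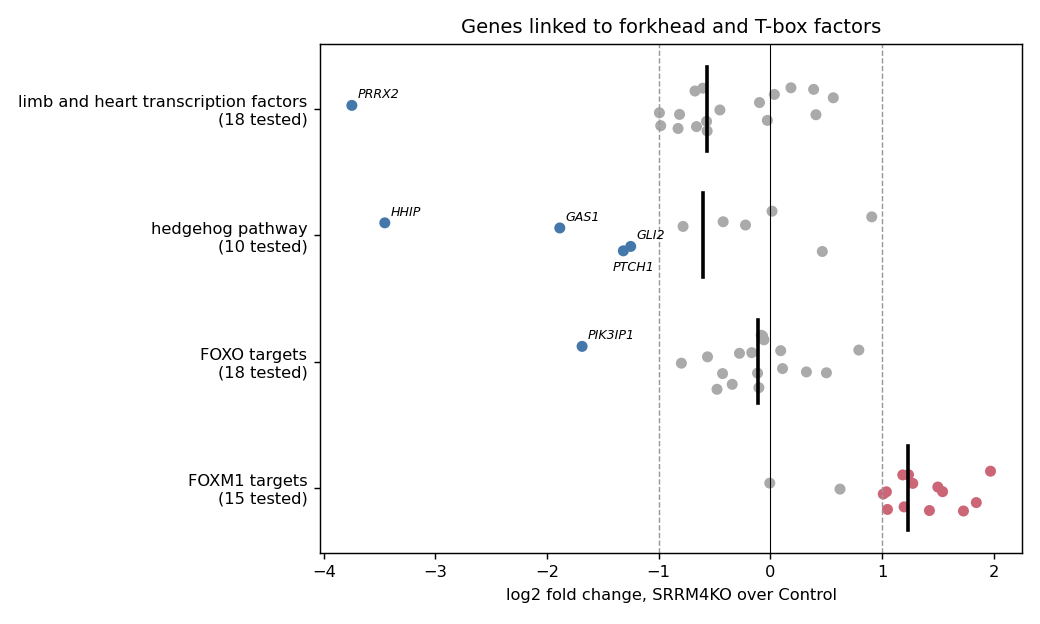
Log2 fold change of the tested genes in 4 lists linked to forkhead or T-box factors, each point a gene (red called higher, blue called lower, grey not called) and each black bar the list's median. The FOXM1 targets centre on 1.24, while the medians of the FOXO targets, the hedgehog pathway and the limb and heart factors are -0.11, -0.60 and -0.57.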

How the data were processed

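RNA of UE7T-9 control and SRRM4 KO cells was measured by non-stranded mRNA-seq on an Illumina NovaSeq instrument. The authors deposited raw read counts per gene, without normalization. The submitters' processing notes name HISAT2 2.0.5, featureCounts 1.5.0-p3 and DESeq2, without their roles. The genome build is not given in the sources used here. The coordinates of all 58 genes equalled those of GENCODE release 29 (GRCh38). The treatment of reads that fit several genes is not given in the sources used here.

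Samples were grouped by title and genotype. The counts were fitted over the whole table with edgeR 4.0.16 in R 4.3.3: TMM normalization, filterByExpr (15341 genes kept), a prior count of 0.125 and the quasi-likelihood test, with p-values adjusted by the Benjamini-Hochberg method. The standard error was the log2 fold change over the square root of F. CPM used TMM-scaled library sizes. Where a group had 0 counts in each library, the fold is a bound against 3 counts per library. Totals of 21496117 to 23868323 counts limit the precision of low genes. Promoters and the RefSeq build GRCh38.p14 came from a RefSeq table with 250 bases before each start, and motifs were searched on both strands.

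Genes, lists and tests were chosen with earlier results of these data known. Values in every library were given for called genes, genes with an adjusted p under 0.05 and no overlap between groups, the 5 highest levels per kilobase, and untested genes of at least 10 counts in total. Some genes are not reported here. The fit was tested on simulated data. Alternatives were DESeq2 1.42.0, 2 other normalizations, other filters, protein-coding genes only, glmTreat, no fold change threshold, leaving out each library, a block for the replicate number, and for neighbourhoods and levels a 2 Mb window and TPM.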

Additional observations from a re-analysis of the deposited data

How the results depend on the processing

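FOXM1, TBX2, TBX3 and FOXE1 kept their direction in every alternative. A test against the threshold itself (glmTreat) left 0 genes called higher of the 3, with adjusted p of 0.126 for FOXM1, 0.713 for TBX2 and 0.824 for TBX3, 2 genes past the adjusted p in place of 14, 8 FOXM1 targets in place of 13 and 2 hedgehog genes in place of 4. With at least 10 counts in every library 1 gene was called lower in place of 2, since FOXS1 was not tested, and the 2 limb and heart factors called were TWIST1 and GATA6 in place of PRRX2, which was not tested either. Without a fold change threshold 5 genes were higher and 9 lower, and 9 FOXO targets and 10 limb and heart factors were called in place of 1 each. FOXO targets called were 2 with no filter and with DESeq2, which added TRIM63. Limb and heart factors called were 3 with upper-quartile normalization and 2 over protein-coding genes only. The causes of these last shifts were not tested.

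Leaving out 1 library at a time gave 3 to 4 genes called higher, 2 to 4 called lower, 11 to 16 past the adjusted p, 11 to 13 FOXM1 targets, 1 to 2 FOXO targets, 4 hedgehog genes and 1 to 3 limb and heart factors. The 4 called lower came without SRRM4 KO 3, which added FOXQ1 and FOXF2. The added FOXO target was TRIM63, which passed the filter through its control libraries alone. The 3 limb and heart factors came without Control 1, SRRM4 KO 1 or SRRM4 KO 2. In the same fits the log2 fold changes near 0 crossed it: TBX15 ranged from -0.12 to 0.048, TBX18 from -0.17 to 0.012 and TBX19 from -0.20 to 0.13, the first 2 above 0 without Control 1 and TBX19 without Control 3, SRRM4 KO 2 (0.069) or SRRM4 KO 3 (0.078).

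Replicate numbers did not pair the libraries: deviations from the group means correlated at -0.055, 0.083 and -0.053 between libraries of the same number. With the replicate number as a block, 3 genes were called higher, 2 lower, and 15 in place of 14 passed the adjusted p, with FOXD1 added (0.42, adjusted p = 0.0417). Depth limits the 28 untested genes, and FOXF2, FOXL2, FOXO6 and TBX19 had SEs of 0.47 to 0.78.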
